A study of Homo sapiens with 4 samples.

Results

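FOXK2 ChIP-seq peaks were examined at 43 DNA repair and checkpoint genes in OVCAR5 cells. The genes were taken by name from a list of homologous recombination, damage checkpoint, Fanconi anaemia, end joining, PARP and single-strand break, and mismatch and excision repair genes, and a peak was counted for a gene when the deposited annotation gave that gene as its nearest transcription start site (TSS). Of 12471 peaks in replicate 1 and 27281 in replicate 2, 27 and 50 carried the name of 1 of these genes. OVCAR5 (also written OVCAR-5) is an established high-grade serous ovarian cancer line, labelled as derived from ascites and used at passage 4-6. The cells were untreated and of a single condition, and chromatin was precipitated with an antibody against FOXK2 in 2 biological replicates, each with its own list of peaks. There was therefore no contrast between conditions, and every count below is a description of these replicates. The lists hold positions and scores of peaks and no expression values, and the input libraries were not analysed here.

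FOXK2 is a forkhead transcription factor that binds DNA through a winged-helix domain and recognises the sequence TGTTTAC. Homologous recombination repairs double-strand breaks with the sister chromatid as a template, the Fanconi anaemia pathway removes interstrand crosslinks, and end joining ligates broken ends directly. High-grade serous ovarian cancers often carry defects in homologous recombination, which make cells sensitive to PARP inhibitors.

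By the mean of their score percentiles (the percentage of peaks in the same list with a lower score), the strongest overlapping FOXK2 peaks of these genes lay at RAD51C, RAD51B, PMS2 and MSH6, although FANCI ranked above MSH6 in replicate 1. Another strong peak, at the promoter of MDM2, was called in replicate 2 only. The stretches under these 5 peaks that hold a forkhead site or, at PMS2, an AP-1 site are shown from hg38 on the plus strand, 5′ to 3′. Capitals mark TGTTTAC, or GTAAACA where the site is on the minus strand, and in PMS2 they mark the AP-1 site TGAGTCA. The RAD51B sequence is the stretch common to the peaks of both replicates (chr14:68172225-68172428) and that of MDM2 is the whole peak of replicate 2 (chr12:68807767-68808023). The other sequences are the 30 bases around the site in RAD51C (chr17:58692898-58692927), MSH6 (chr2:47783670-47783699) and PMS2 (chr7:5995784-5995813).
RAD51C: tcccacgtccaTGTTTACagcgtgaaagag
RAD51B: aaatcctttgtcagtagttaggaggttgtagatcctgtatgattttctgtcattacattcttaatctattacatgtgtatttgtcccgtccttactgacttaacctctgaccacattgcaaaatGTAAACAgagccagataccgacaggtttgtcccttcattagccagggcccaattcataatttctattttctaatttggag
PMS2: ccaaatcttgaTGAGTCAtcaaagaaccaa
MSH6: gggtgtagcttGTAAACAgggtcggaggag
MDM2: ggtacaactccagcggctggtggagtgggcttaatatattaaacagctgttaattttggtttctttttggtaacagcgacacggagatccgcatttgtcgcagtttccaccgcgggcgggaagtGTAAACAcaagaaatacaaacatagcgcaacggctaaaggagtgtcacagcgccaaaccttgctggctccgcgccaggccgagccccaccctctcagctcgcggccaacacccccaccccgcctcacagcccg

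Peaks were assigned to 20 of the 43 genes (46.5%) in replicate 1, where 31.3% of the 20052 protein-coding genes of RefSeq had one. Replicate 2 gave 29 genes (67.4%) against 51.7% of all protein-coding genes. Both replicates had a peak at 16 genes (37.2%; 28.6% of all), either replicate had one at 33 (76.7%; 54.4% of all), and 15 genes (34.9%) had peaks that overlapped between replicates by at least 1 bp, against 25.5% of all genes. The share was above the background in each count, by 8.61 to 22.3 percentage points, but the Wilson 95% intervals (counting error only) of the genes with a peak in both replicates, 24.4% to 52.1%, and of those with overlapping peaks, 22.4% to 49.8%, included it. Peaks annotated to a promoter were found at 14 genes in replicate 1 (32.6%; 11.9% of all genes), 20 in replicate 2 (46.5%; 21.2%) and 10 in both (23.3%; 9.30%).

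**Figure D1:**
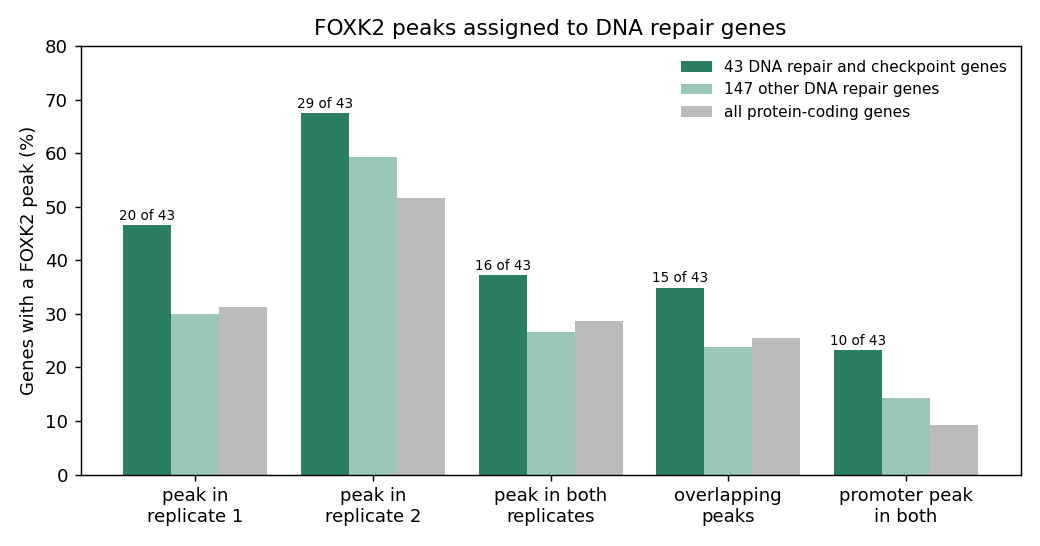
Percentage of genes with a FOXK2 peak (vertical axis) by replicate and kind of peak, for the 43 DNA repair and checkpoint genes (dark green, with counts), 147 other DNA repair genes (light green) and all protein-coding genes (grey). In each of the 5 counts the 43 genes have the highest bar, from 23.3% for promoter peaks in both replicates to 67.4% for any peak in replicate 2.

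Of the 9 Fanconi anaemia genes, 5 had peaks in both replicates, and 4 of these had overlapping peaks. Over all protein-coding genes the shares were 28.6% for peaks in both replicates and 25.5% for overlapping peaks. Among the 9 damage sensing and checkpoint genes, ATR, RAD50 and MDC1 had overlapping peaks, all of them at promoters. Homologous recombination had 3 of 12 genes with overlapping peaks (RAD51B, RAD51C and RAD52), end joining 2 of 6 (XRCC5 and POLQ), PARP and single-strand break repair 1 of 3 (PARP2), and mismatch and excision repair 2 of 4 (MSH6 and PMS2). No peak carried the name of BRCA1, PALB2, BRIP1, XRCC3, RAD54L, CHEK2, NBN, FANCG, XRCC1 or ERCC4 in either replicate. These groups hold 3 to 12 genes each, and differences between them were not tested.

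**Figure D2:**
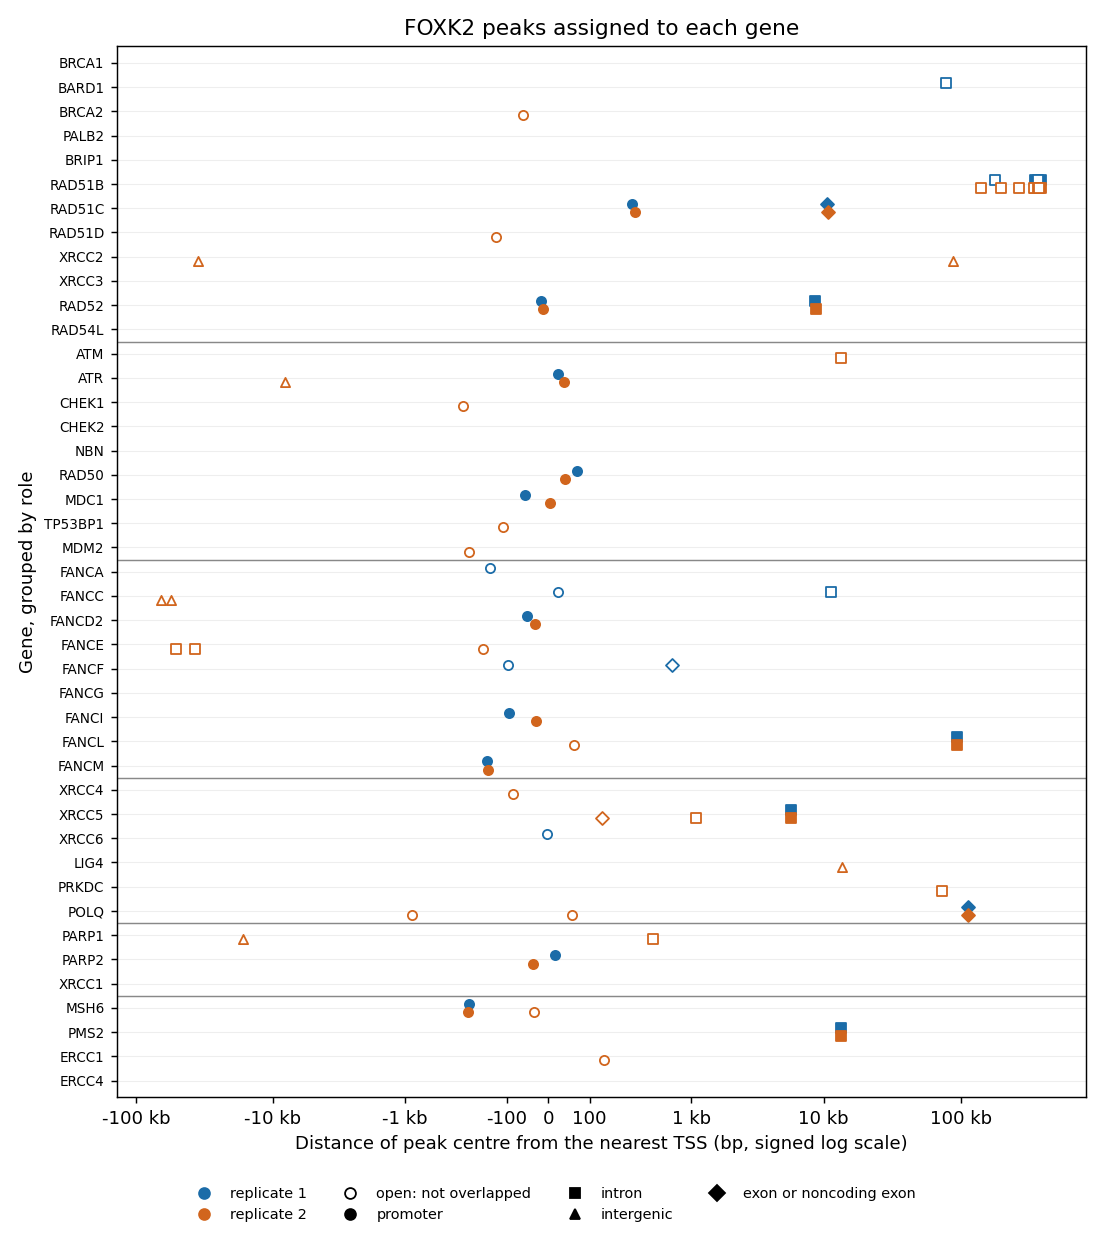
Distance of each peak centre from the nearest TSS (horizontal axis, signed log scale in bp) for the 43 genes (vertical axis, with lines between roles), with replicate 1 in blue and replicate 2 in orange. Filled symbols are peaks that overlapped between replicates, and shapes give the annotated class. Filled circles at 10 promoters and filled squares far downstream in RAD51B, FANCL, XRCC5 and PMS2 make up most of the overlapping pairs.

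Among the homologous recombination genes, RAD51C, which acts in strand exchange between sister chromatids, had the strongest peak in both lists among those that carry the name of 1 of the 43 genes. Its promoter peak scored 16.8 in replicate 1 (89 tags, rank 438 of 12471) and 28.1 in replicate 2 (189 tags, rank 638 of 27281), with centres 304 and 325 bp downstream of the nearest TSS. The promoter class spans 1000 bp upstream to 100 bp downstream of a start, so the promoter label rests on a different start, whose gene was not looked up. The centres lay 275 and 296 bp downstream of the canonical RAD51C start. The stretch common to both peaks overlapped untranslated and coding sequence of RAD51C, and it counts as a promoter peak by the label alone. IGBP1C and TEX14 start in the opposite direction within 1000 bp upstream of the canonical RAD51C start. The HOMER score was a whole multiple of a fixed step in each list, 0.189 in replicate 1 and 0.149 in replicate 2, which is the value of 1 tag, and scores are therefore compared only by their rank within 1 list. The score percentile was 96.4 and 97.6. The window of 100 bp to each side of both centres held the TGTTTAC site shown above. Another pair of RAD51C peaks, 10649 and 10683 bp downstream in an exon of a noncoding transcript, scored 5.66 and 7.88 and lay near the middle of each list, at percentiles 44.2 and 55.1.

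RAD51B, a member of the same complex, carried the most peaks of any of these genes, with 4 in replicate 1 and 8 in replicate 2, all in intron 7. The pair 348731 and 348761 bp from the TSS scored 12.8 (68 tags, percentile 92.2) and 25.6 (172 tags, percentile 96.9) and held the site shown above, 26 bp from the middle of the common stretch. A further overlapping pair lay 387379 and 387432 bp from the TSS, with scores of 6.98 and 13.2 (percentiles 62.9 and 83.6) and no TGTTTAC. The other 2 peaks of replicate 1 scored 5.09 and 6.23 and the other 6 of replicate 2 scored 5.21 to 11.9, none of them overlapping. The canonical RAD51B transcript is 658315 bp long, so the number of peaks is not comparable with that of shorter genes. Replicate 2 had 4 more peaks inside the transcript, scoring 5.50 to 12.3, which the annotation gave to LOC100996664. RAD51B had no promoter peak in either list.

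**Figure D3:**
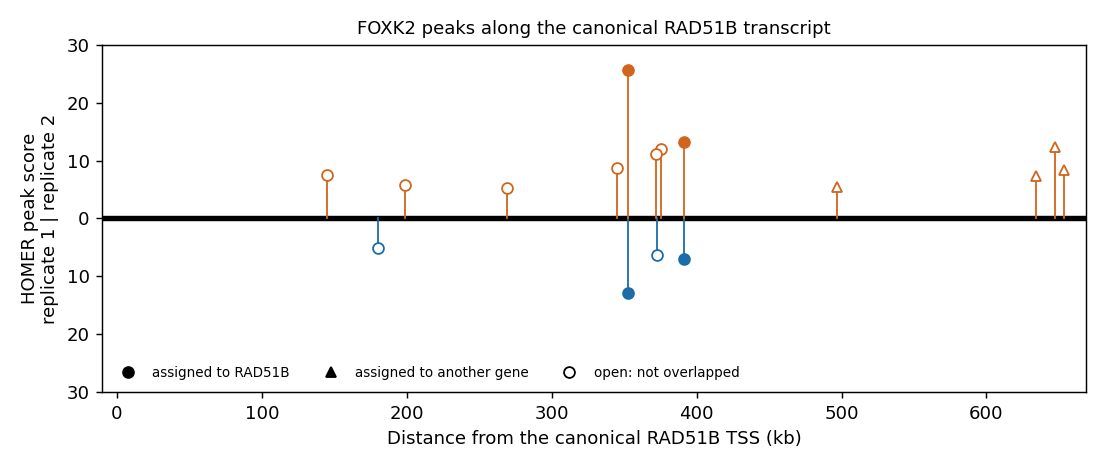
HOMER peak score (vertical axis; replicate 1 in blue downward, replicate 2 in orange upward) along the canonical RAD51B transcript (distance from its TSS in kb). Filled symbols are peaks that overlapped between replicates, and triangles are peaks assigned to another gene. The highest point of each list, 12.8 and 25.6, stands at the same place, and no peak lies at the TSS.

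RAD52, a protein that anneals complementary single strands, had a promoter peak 13 and 9 bp upstream of the TSS with scores of 6.23 and 9.22 (percentiles 53.7 and 65.7). A weak intron 1 pair lay 8657 and 8696 bp from the TSS, in annotated repeats. Its scores of 3.58 and 4.16 (percentiles 0.754 and 7.79) were close to the lowest of the lists, 3.02 and 3.12. BRCA2, a tumour suppressor of homologous recombination, had a promoter peak only in replicate 2, 53 bp upstream of the TSS, with a score of 11.5 (rank 5943). Of the 500 peaks of replicate 2 nearest to it in rank, 56.2% were overlapped in replicate 1. RAD51D, which shares a complex with RAD51B and RAD51C, had a replicate 2 promoter peak of score 10.1 at 139 bp upstream. XRCC2, its partner, had only 2 distal peaks in replicate 2, of scores 6.84 and 3.87, at 87586 bp downstream and 35254 bp upstream. BARD1, the partner of BRCA1, had only an intron peak in replicate 1, 78601 bp from the TSS, with a score of 7.73.

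Among the damage sensing and checkpoint genes, RAD50, a subunit of the MRN complex that senses broken ends, had a promoter peak 62 and 33 bp downstream of the TSS with scores of 6.04 and 10.7 (percentiles 50.7 and 74.3). ATR, the kinase activated by single-stranded DNA, had one 17 and 29 bp downstream with scores of 5.09 and 6.99 (percentiles 32.7 and 46.1), and replicate 2 had a further peak of score 9.82, 8122 bp upstream. The promoter peak of MDC1, a scaffold on damaged chromatin, lay 48 bp upstream and 3 bp downstream of the nearest TSS, inside the divergent neighbour TUBB and 448 and 397 bp upstream of the canonical MDC1 start, and scored 4.15 and 7.29 (percentiles 9.70 and 49.3). These 3 promoters held no TGTTTAC in either window, and in both lists they ranked below the strongest peaks of RAD51C and RAD51B.

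MDM2, the ubiquitin ligase for p53, had the strongest peak that was called in a single replicate. It lay 277 bp upstream of the nearest TSS and scored 17.4 in replicate 2 (117 tags, rank 2310, percentile 91.3), and replicate 1 had no peak there. Of the 500 peaks of replicate 2 nearest in rank, 84.0% were overlapped in replicate 1. The peak held the TGTTTAC site shown above, 1 bp from its middle. CHEK1, the kinase downstream of ATR, and TP53BP1, a chromatin adaptor that favours end joining, had promoter peaks in replicate 2 only, with scores of 6.54 and 6.25. The TP53BP1 peak lay at an alternative start, and no peak of either list lay within 1000 bp of its canonical start. ATM, the kinase activated by double-strand breaks, had a replicate 2 peak of score 5.35 in intron 5.

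In the Fanconi anaemia pathway, FANCI and FANCD2 form the complex that is monoubiquitinated at crosslinks, and both had promoter peaks in both replicates. The FANCI peak scored 8.87 and 13.7 (percentiles 78.7 and 84.8), with centres 93 and 23 bp upstream of the TSS. That of FANCD2 scored 6.41 and 14.7 (percentiles 56.1 and 87.1), 43 and 24 bp upstream. FANCM, a translocase that recruits the core complex, had a promoter peak 177 and 174 bp upstream with scores of 6.98 and 9.52 (percentiles 62.9 and 67.5). None of these 3 promoter peaks held TGTTTAC.

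FANCL, the ubiquitin ligase of the core complex, was assigned an overlapping pair of scores 8.30 and 11.7 (percentiles 74.9 and 78.8) that lay 94458 and 94455 bp away. The annotation placed this pair in an intron of a transcript of VRK2, the neighbouring gene, and each peak held 2 AP-1 sites. At the FANCL promoter itself only replicate 2 had a peak, of score 8.03, 54 bp from the TSS. FANCC had peaks in both lists that did not overlap, at the promoter (4.72) and in intron 1 (4.15) in replicate 1 and far upstream of the nearest TSS (10.7 and 5.95) in replicate 2. The deposited annotation called the replicate 2 peaks intergenic, at 55585 and 65596 bp upstream, but GENCODE places them inside a longer FANCC gene. They and the intron 1 peak held TGTTTAC. FANCA and FANCF, other core complex members, had peaks in replicate 1 only, FANCA at the promoter (6.41) and FANCF at the promoter (4.72) and in its exon (5.85). FANCE had a promoter peak of score 5.21 in replicate 2, and 2 weaker ones of 4.31 and 4.46 in introns of a neighbouring gene.

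Of the end joining genes, XRCC5, which encodes Ku80, had an overlapping pair in intron 2, inside a MER50C long terminal repeat 5698 and 5697 bp from the TSS, with scores of 7.73 and 13.7 (percentiles 70.6 and 84.8). Replicate 2 added peaks in exon 1 (11) and intron 1 (11.3). XRCC6, the gene of the partner Ku70, had a promoter peak of score 6.60 in replicate 1 only. POLQ, the polymerase of microhomology-mediated joining, had an overlapping pair in its last exon, exon 30, 113700 and 113695 bp from the TSS. The scores were 7.17 and 7.73 (percentiles 65.1 and 53.6). The POLQ promoter had peaks of 10.1 and 4.76 in replicate 2 only.

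XRCC4 and LIG4 form the ligase complex. XRCC4 had a promoter peak of score 5.95 in replicate 2, and LIG4 an intergenic one of 9.82, 13531 bp away. A stronger overlapping pair lay inside XRCC4, in intron 7, with scores of 9.24 (rank 2246) and 18.7 (rank 1870, percentile 93.0) and 2 TGTTTAC sites in each window. The deposited annotation gave it to TMEM167A, whose start lies next to that of XRCC4 and thus 187986 and 187929 bp from the peaks. PRKDC, the kinase that acts with Ku, had an intron peak of score 6.69 in replicate 2, in an Alu repeat.

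PARP2, an enzyme that marks strand breaks with poly(ADP-ribose), had a promoter peak 12 bp downstream and 29 bp upstream of the nearest TSS with scores of 5.09 and 10.1 (percentiles 32.7 and 71.3). The promoter label named a noncoding transcript, whose gene was not looked up. The centres lay 9 and 50 bp upstream of the canonical PARP2 start. PARP1, the main enzyme that senses strand breaks, had only replicate 2 peaks of low score, 5.35 in intron 1 and 4.16 at 16682 bp upstream. PMS2, the nicking subunit of mismatch repair, had a pair that the annotation placed in intron 6 of a transcript, 13306 and 13339 bp from the TSS with scores of 10.8 (57 tags, percentile 87.3) and 22.9 (154 tags, percentile 95.9). The stretch common to both peaks reached the adjoining coding exon at its edge, while the 30 bases printed above lie outside it. Neither window held TGTTTAC. The AP-1 site shown above lay 81 bp from the middle of this stretch, inside the searched window of replicate 1 and outside that of replicate 2. PMS2 has pseudogene copies, and every 50-base word of the reference in its peaks occurred once in hg38, so an exact read of this length had a single place there. Over all 77 peaks of the 43 genes, 75 had no repeated 50-base word.

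MSH6, the mismatch recognition subunit, had a pair of promoter peaks 278 and 284 bp upstream of the nearest TSS, with centres 532 and 526 bp downstream of the canonical start. The scores were 8.49 (percentile 76.3) and 16.5 (percentile 90.2), and the pair held the TGTTTAC site shown above. In replicate 2 a further MSH6 promoter peak, 91 bp upstream of the canonical start, scored 13.8 and held none. ERCC1, an excision repair nuclease subunit, had a promoter peak of score 4.91 in replicate 2.

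**Figure D4:**
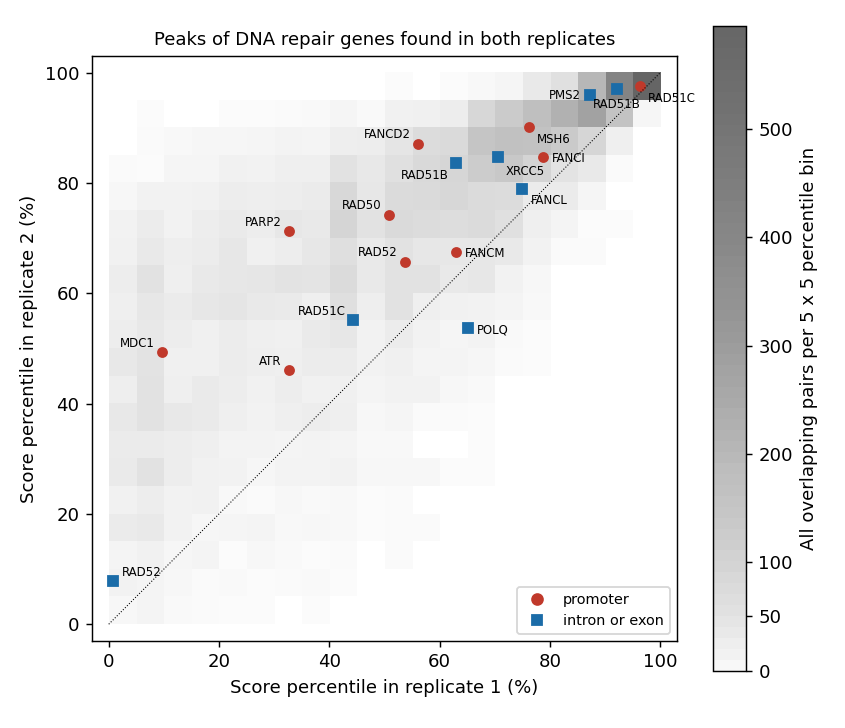
Score percentile in replicate 1 (horizontal axis) and replicate 2 (vertical axis) of the 18 overlapping peak pairs of the 43 genes, with promoter pairs as red circles and intron or exon pairs as blue squares, over the density of all 9343 overlapping pairs (grey). RAD51C, RAD51B and PMS2 lie in the upper right corner, and 17 of the 18 pairs lie above the dotted line of equal percentiles.

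The 18 overlapping pairs had scores of 3.58 to 16.8 in replicate 1 and 4.16 to 28.1 in replicate 2, where the highest scores of the lists were 188.3 and 387.9. Their centres were 1 to 70 bp apart with a median of 25 bp, where all 9343 pairs of the lists had a median of 29 bp. The percentile was higher in replicate 2 in 17 of the 18 pairs, POLQ being the exception, and in 89.9% of all pairs, a shift seen over the lists as a whole. Of the 27 peaks of replicate 1, 18 (66.7%, Wilson 95% interval 47.8 to 81.4) were overlapped in replicate 2, where 74.9% of the whole list was. Of the 50 peaks of replicate 2, 18 (36.0%, 24.1 to 49.9) were overlapped in replicate 1, with 34.2% for the whole list. Both intervals hold the share of the whole list, and both take each peak as independent although some genes had several.

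As in the whole lists, overlapped peaks ranked higher than the others. Their median percentile was 62.9 in replicate 1, against 47.5 for the 9 peaks that were not overlapped, and 76.5 in replicate 2, against 43.5 for the other 32. In the whole lists the medians were 58.6 against 24.4 and 77.6 against 33.9. All peaks of the lists had medians of 47.5 and 49.3, and all peaks of the 43 genes had medians of 56.1 and 63.5. Peaks held at least 16 tags in the list of replicate 1 and 21 in that of replicate 2, and the median over the 43 genes was 34 and 60 tags. Whether a peak called in a single list lay under the threshold of the other was not tested, and absence from a list was not taken as absence of FOXK2.

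Promoter peaks made up a larger part of these peaks than of the lists. In replicate 1, 14 of 27 (51.9%, 34.0 to 69.3) were annotated to a promoter, where the whole list had 21.7%, and in replicate 2, 22 of 50 (44%, 31.2 to 57.7), where the whole list had 18.0%, below both intervals. Intergenic peaks numbered 0 of 27 and 7 of 50, with 34.1% and 36.5% in the whole lists. The 0 of 27 allows a share of up to 12.5% (Wilson). Introns held 10 of 27 and 18 of 50, close to the 39.0% and 40.6% of the lists, and RAD51B alone supplied 4 and 8 of these. The intervals take each peak as independent.

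The exact forkhead site was found in a smaller share of these peaks than of the lists, within counting error. TGTTTAC was looked for on either strand in the 100 bp to each side of the centre and was present in 4 of 27 peaks of replicate 1 (14.8%, 5.92 to 32.5) and 8 of 50 of replicate 2 (16.0%, 8.34 to 28.5), where 30.5% and 28.2% of all peaks had it. At promoters the shares were close to those of the lists, with 2 of 14 against 14.4% and 3 of 22 against 10.9%. Away from promoters 2 of 13 (15.4%, 4.33 to 42.2) and 5 of 28 (17.9%, 7.88 to 35.6) held it, against 35.0% and 32.0%, the intervals including the share of the lists. RAD51B supplied 4 of those 13 and 8 of those 28 peaks, and all that held the site belonged to RAD51B or FANCC. The intervals for peaks take each peak as independent, so with several peaks per gene they are too narrow. The degenerate core (A or G, C or T, AAA, C or T, A), which includes every TGTTTAC, was found in 8 of 27 (29.6%, 15.9 to 48.5) and 20 of 50 (40%, 27.6 to 53.8), where the lists had 57.9% and 56.9%, above both intervals. Within each class the intervals held the share of the lists: promoter peaks had 14.3% (4.01 to 39.9) and 22.7% (10.1 to 43.4) beside 29.0% and 25.1%, and other peaks 46.2% (23.2 to 70.9) and 53.6% (35.8 to 70.5) beside 65.9% and 63.8%. In both classes the value was below that of the list. The AP-1 sites TGACTCA and TGAGTCA were found in 5 of 27 and 8 of 50, at 18.5% and 16.0%, beside 16.4% and 16.6% of the lists. The promoter peaks had a median GC content of 64.7% and 65.2%, beside 63.2% and 63.7% for all promoter peaks.

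**Figure D5:**
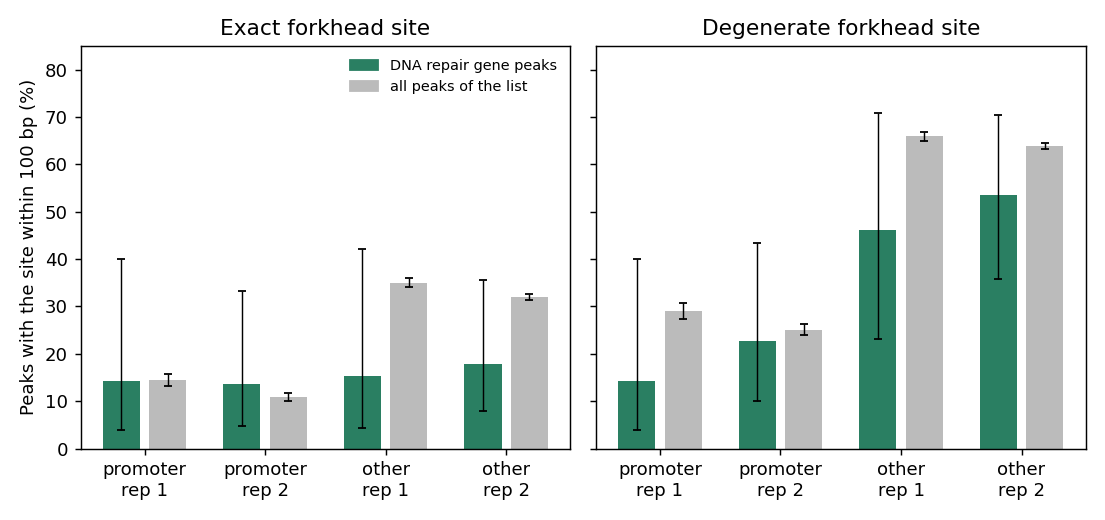
Percentage of peaks with a forkhead site within 100 bp of the centre (vertical axis), for TGTTTAC (left) and the degenerate core (right), by replicate and by promoter or other annotation. Green bars are peaks of the 43 genes and grey bars all peaks of the list, and error bars are Wilson 95% intervals. Green and grey bars are close for the exact site at promoters, and the green bars are lower away from promoters, with wide intervals.

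RefSeq promoter sequences of GRCh38, from 250 bases before to 50 after the gene start, were matched for 39 of the 43 genes. None of the 39 held TGTTTAC on either strand, and 3.41% of all 27305 promoters did. The sites at RAD51C, MSH6 and MDM2 thus lay outside this window.

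The name of a peak depended on the neighbour at several starts. When peak centres within 1000 bp of the canonical GENCODE start were counted whatever gene the annotation named, replicate 1 had a peak at 15 of the 43 genes (16.4% of all protein-coding genes), replicate 2 at 25 (28.9%) and both at 11 (25.6%; 13.6% of all). With any annotated start of the gene, both replicates had a peak at 13 (16.9% of all). A start of another protein-coding or long noncoding RNA gene, in the opposite direction within 1000 bp upstream, was present at 18 of the 43 genes (41.9%; 23.4% of all genes). Genes of other classes were not searched. Among those 18, 6 had such a peak in each list, against 5 among the other 25. Over all protein-coding genes, 24.9% of the 4692 with such a partner and 10.1% of the 15354 without had a peak in both.

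PRKDC had the strongest of these peaks. It shares its promoter region with MCM4, a subunit of the replicative helicase, and the peaks there carried the name MCM4. Replicate 1 had a peak of score 17 (rank 429) 667 bp upstream of the PRKDC start, and replicate 2 one of 32.7 (rank 445) at 678 bp, at percentiles 96.5 and 98.4, above RAD51C in both lists. A weaker peak of replicate 1, of score 9.05, lay 99 bp upstream. Peaks on chromosome 8, where PRKDC lies, ranked high as a whole, with median percentiles of 74.9 and 74.3 beside 47.5 and 47.7 on the other chromosomes, and the part of this in the PRKDC value was not tested. BRCA1 shares its start region with NBR2, where replicate 2 had a peak of score 11.6 (rank 5778) 158 bp upstream. PALB2, which bridges BRCA1 and BRCA2, had a replicate 2 peak of 10.4 named DCTN5, 56 bp upstream, and CHEK2 had a very weak one of 3.57 named HSCB, 723 bp upstream. Replicate 1 had no peak at the starts of BRCA1, PALB2 and CHEK2.

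Across 147 other DNA repair genes, 44 had a peak in replicate 1 (29.9%; 31.3% of all protein-coding genes), 87 in replicate 2 (59.2%; 51.7%) and 39 in both (26.5%), 35 had overlapping peaks (23.8%) and 21 a promoter peak in both (14.3%; 9.30% of all). For peaks in both replicates and for overlapping peaks these shares were near the 28.6% and 25.5% of all protein-coding genes, while the 43 genes were at 37.2% and 34.9%. By role, both replicates had a peak at 15 of 34 other sensing and checkpoint genes, 8 of 33 of homologous recombination, 9 of 35 of mismatch and excision repair, 3 of 12 of translesion synthesis and direct reversal, 2 of 10 of single-strand break repair, and 1 each of 13 Fanconi and 10 end joining genes.

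In 8 of the 147 the best overlapping pair was at percentile 90 or above in both lists. This cut served to choose genes to name, and the share of all protein-coding genes that pass it was not counted. WDR48, a cofactor of the USP1 deubiquitinase that acts on FANCD2, had a promoter peak of scores 33.6 (rank 67) and 67.7 (rank 60), with TGTTTAC. RIF1, an effector of TP53BP1, followed with promoter scores of 21.1 and 35.2, also with the site. CDC25C, the phosphatase that drives entry into mitosis, had 17 and 30.6 without it. TDP1, which clears trapped topoisomerase, had 15.1 and 24.1 at its promoter, and UIMC1, a BRCA1 complex subunit, had 13.4 and 24.5. The strongest pairs of RECQL5 (14.7 and 24.4), GADD45B (13.4 and 30.9) and RAD23B (12.3 and 19.5) lay away from the TSS, at 12698, 31197 and 39338 bp in replicate 1. WDR48, RIF1 and CDC25C thus ranked above RAD51C in both lists.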

How the data were processed

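The 2 deposited FOXK2 peak lists of OVCAR5 cells were used. According to the methods and the submitters' processing notes, the authors mapped 50-bp reads to hg38 with Bowtie2 2.2.6 and called and annotated peaks with HOMER 4.10. Each replicate has its own deposited list. The methods also describe enrichment statistics for each peak from DESeq2, which were not used here. The deposited columns were a peak score, a focus ratio (a fraction of tags) and a distance to the TSS, and no other measurement by the authors was used. Score steps gave the tags per peak (tolerance 0.0051). Each peak covered 211 bases in replicate 1 or 257 in replicate 2, and no threshold was added.

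Genes were matched to the deposited names, overlaps needed 1 bp, and shares carry Wilson intervals. No test was run, since there was 1 condition. Starts came from GENCODE release 44, promoter sequences and the 20052 genes from RefSeq. The members and gene lists were chosen with earlier results of these data known. Every gene was accounted for, those with overlapping peaks with scores, percentiles and distances, grouped by role (the planned order was by mean percentile alone), and other repair genes were named at percentile 90 or above in both lists. Overlap and motif counting was checked on simulated peaks. Python 3.11.15, numpy 2.4.6, pandas 2.3.3, pysam 0.24.0, matplotlib 3.10.9 and samtools 1.23.1 were used.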

Additional observations from a re-analysis of the deposited data

How the results depend on the processing

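Of 53 alternative values for 12 results, 44 stayed within 1.5 times the count, or within the interval of the share or median, and 9 did not. Genes with a peak in replicate 2 fell from 29 to 19, both for the higher-scoring 50% of each list and with replicate 2 limited to as many peaks as replicate 1 holds. With lists of that equal length, 50% of the peaks of these genes in replicate 2 were overlapped in place of 36.0%. For the shortened lists, and for the gene-body count below, the matching shares over all genes and all peaks were not counted. These values therefore do not show whether these genes differ from the lists. The degenerate forkhead core in place of TGTTTAC gave 40% in place of 16.0% in replicate 2, and the higher-scoring 50% of the lists gave a median percentile of 76.0 in replicate 2 in place of 63.5. Percentiles stayed those of the full list, so the rise in the median follows from the cut and is no result about these genes. Leaving out a replicate gave 20 to 29 genes for a peak in both replicates and for overlapping peaks, 14 to 20 for a promoter peak in both and 44 to 87 for other repair genes, since the remaining list then stands alone. Counting peaks in gene bodies and 1000 bp upstream, whatever their name, gave 18 genes with overlapping peaks in place of 15, with BRCA1, ERCC1, PRKDC and XRCC4 gained and FANCL lost. At BRCA1, ERCC1 and PRKDC no overlapping pair lay inside the canonical transcript. After seeing the data, the count at canonical starts (11) was added. No paired analysis was possible because the peak lists, the only measurements used, hold no values for the input samples. Each replicate has its own input sample, but no comparison used the input samples.

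A list with 2.19 times as many peaks finds more genes, so the counts of replicate 2 are not comparable with those of replicate 1. The nearest TSS need not be the gene a peak acts on. With 27 and 50 peaks the shares carry wide intervals, which also leave out that several peaks can belong to 1 gene.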
